A study of Mus musculus with 4 samples.

Results

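Glycolysis splits glucose into pyruvate, and pyruvate is either reduced to lactate and exported or oxidised in mitochondria through the pyruvate dehydrogenase complex. Most steps are served by several isoforms coded by different genes, and many cell types use a characteristic set of them. Pluripotent stem cells are known for a high rate of glycolysis even in the presence of oxygen, whereas marrow mononuclear cells are a mixture in which maturing red cells, granulocytes, monocytes and lymphocytes each have their own isoforms. The genes described here are 37 members of this route: glucose transporters, the enzymes of every glycolytic step, the enzymes that set the level of the activator of phosphofructokinase, lactate dehydrogenases and lactate transporters, pyruvate dehydrogenase and its kinases, and the fructose bisphosphatases that run the phosphofructokinase step backwards. A member was found where the accession carried by a probe belongs to that gene in RefSeq. By this rule 36 of the 37 members were matched, by 54 of the 41160 distinct probes used, and only Gapdh was matched by none and was not analysed here. All 36 passed the filter on dim probes, among 21231 genes or transcripts that did so of 33378 on the array. Their values were well above background on every array for 32 members and only on some arrays for 4 (Eno2, Pklr, Pdk4 and Fbp2), and those 4 passed the filter through the arrays on which they were brighter.

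The study profiled RNA from induced pluripotent stem (iPS) cells made from adult bone marrow mononuclear cells (BMMNCs), set against embryonic stem (ES) cells and against BMMNCs. There were 4 single-colour arrays. The iPS group had 2 lines, number 7 and number 13, of the C57BL/6 strain, made from cells of Oct4-EGFP transgenic mice, which carry a green fluorescent reporter of a pluripotency gene. The ES group was 1 array of the E14 line, of the 129 strain, and the BMMNC group was 1 array of C57BL/6 cells, for which the labels give no transgene. The iPS and ES cells grew on irradiated mouse embryonic fibroblasts in serum and leukaemia inhibitory factor, and the fibroblasts were depleted by preplating on gelatin before the RNA was taken. The ES array differs from the iPS arrays in strain and reporter as well as origin, and these cannot be told apart.

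Levels are given as the log2 of the processed spot signal relative to the 75th percentile of its array, so that a level of 1 is 2 times that percentile. Such levels can be compared between arrays for 1 gene, but not between genes. The 4 arrays lay on 1 slide, had between 54.6% and 59.0% of probes well above background, and carried no saturated spot. The spread between the 2 lines is the only replicate error, nothing in the labels says more of how independent the lines are, and the single ES and BMMNC arrays were taken to vary as the lines do. Marker genes went with the labels: all 9 tested pluripotency markers were well above background in both iPS lines and in ES cells, against 3 in BMMNCs. Of these 9, only Zfp42, named after its values were seen, passed the test by limma between iPS and ES cells. Its level was 3.37 in line 7, 3.62 in line 13 and 7.19 in ES cells (-3.69 ± 0.158). Each iPS and ES array had 2 granulocyte and between 4 and 6 erythroid markers well above background, against all 10 of both lists in BMMNCs. The lists for monocytes, B cells, T and NK cells and megakaryocytes were also lower in iPS cells, gene for gene except 1 of the 6 T and NK genes, and the median differences of the blood cell lists ran between -14.35 for granulocytes and -3.84 for megakaryocytes. All 12 fibroblast markers were well above background in both iPS lines and in ES cells, with a summed signal of 8.84 in line 7, 8.75 in line 13 and 8.61 in ES cells on the log2 scale, against 3.43 in BMMNCs, where 5 were. What part these other cells have in the values below was not tested. In a bulk sample, fewer cells of a type and less RNA per cell cannot be told apart.

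The promoters of the members were searched for ACGTG on either strand, the core letters of the sites that hypoxia-inducible factors are known to bind. They were also searched for CACGTG, the E-box, which contains that core on both strands. The counts are a description with no test. The windows are from RefSeq (GRCm38.p6) and run from 250 bases before to 50 bases after each annotated start. A window was matched for 36 of the 37 members, Gapdh included and Slc2a3 not. At least 1 window with ACGTG was found for 19 of these 36 genes (52.8%), against 21.8% of all 27025 genes with a window, and CACGTG for 7 (19.4%), against 8.09%. A gene with more windows has more places for a match, and the gene shares were not corrected for this. By window, 41.1% of the 56 windows of members held ACGTG, against 19.6% of all 32851 windows. Base composition differed too: member windows held a median of 15 CG pairs, against 7 over all windows. Of the 11378 windows of all genes with at least 15 CG pairs, whose median was 25, 28.4% held ACGTG. Members with ACGTG were 11 of the 22 genes that were higher in iPS cells than in BMMNCs (50%) and 5 of the 9 that were lower (55.6%). The 6 windows shown are those of 4 genes higher in iPS cells (Slc2a1, Aldoa, Pgk1 and Ldha) and a pair of genes lower in them (Pfkfb3 and Slc16a1), on the strand of the gene and with the matches in capitals. For a gene with several annotated starts, 1 window is shown. A match describes the letters only.
Slc2a1 (chr4:119108495-119108794, + strand): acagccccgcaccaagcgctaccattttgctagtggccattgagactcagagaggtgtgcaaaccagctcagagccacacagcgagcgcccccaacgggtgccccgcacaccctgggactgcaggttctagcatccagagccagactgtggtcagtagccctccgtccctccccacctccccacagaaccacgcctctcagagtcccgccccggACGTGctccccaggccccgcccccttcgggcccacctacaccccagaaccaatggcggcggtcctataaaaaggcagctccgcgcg
Aldoa (chr7:126799205-126799504, - strand): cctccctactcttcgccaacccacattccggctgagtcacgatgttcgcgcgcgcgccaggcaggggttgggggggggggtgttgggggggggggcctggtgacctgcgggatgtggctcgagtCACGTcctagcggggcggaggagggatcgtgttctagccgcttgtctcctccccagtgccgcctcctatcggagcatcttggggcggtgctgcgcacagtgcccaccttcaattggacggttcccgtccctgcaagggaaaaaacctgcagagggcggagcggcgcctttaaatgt
Pgk1 (chrX:106186850-106187149, + strand): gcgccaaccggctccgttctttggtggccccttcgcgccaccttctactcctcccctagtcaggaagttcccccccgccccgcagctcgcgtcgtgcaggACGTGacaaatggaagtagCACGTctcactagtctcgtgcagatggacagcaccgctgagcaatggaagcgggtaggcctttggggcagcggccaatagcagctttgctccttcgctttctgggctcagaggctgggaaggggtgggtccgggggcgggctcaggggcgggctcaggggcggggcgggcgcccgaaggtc
Ldha (chr7:46845554-46845853, + strand): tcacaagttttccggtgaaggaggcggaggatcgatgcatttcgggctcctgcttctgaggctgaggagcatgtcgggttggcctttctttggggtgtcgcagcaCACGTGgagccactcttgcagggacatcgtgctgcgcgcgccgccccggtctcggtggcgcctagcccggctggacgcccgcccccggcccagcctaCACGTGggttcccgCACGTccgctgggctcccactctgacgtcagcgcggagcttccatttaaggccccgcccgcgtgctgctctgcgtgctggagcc
Pfkfb3 (chr2:11502041-11502340, - strand): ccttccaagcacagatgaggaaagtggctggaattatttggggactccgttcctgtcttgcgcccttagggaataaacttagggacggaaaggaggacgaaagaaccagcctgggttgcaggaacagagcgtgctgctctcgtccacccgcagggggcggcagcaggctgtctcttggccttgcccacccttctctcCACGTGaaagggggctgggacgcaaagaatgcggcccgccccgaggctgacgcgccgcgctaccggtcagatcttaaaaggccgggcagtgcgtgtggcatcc
Slc16a1 (chr3:104638414-104638713, + strand): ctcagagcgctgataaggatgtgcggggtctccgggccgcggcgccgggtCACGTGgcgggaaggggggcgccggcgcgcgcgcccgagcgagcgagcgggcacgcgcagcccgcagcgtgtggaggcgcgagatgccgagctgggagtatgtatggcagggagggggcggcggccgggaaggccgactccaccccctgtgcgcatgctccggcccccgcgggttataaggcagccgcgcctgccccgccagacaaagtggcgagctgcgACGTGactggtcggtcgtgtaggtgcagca
Counted from the start of transcription, the match began at -36 in Slc2a1, at -126 in Aldoa and at -150 and -131 in Pgk1. Ldha had an E-box at -145 and another at -48, and a single core match at -34. Pfkfb3 had an E-box at -53, and Slc16a1 had one at -200 with a further core match at 21 bases after the start.

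The first question was how the route differs between iPS cells and BMMNCs, whose array is not shown by the labels to be of the cells that gave the lines. Members higher in iPS cells included both glucose transporters, Hk2, all 3 phosphofructokinase subunits (Pfkp by 1 of its 2 probes), both aldolases, Tpi1, Pgk1, the mutases Pgam1 and Pgam2, Eno1, Eno2, Pkm, both lactate dehydrogenases and Pdk1. The lower members were Hk1, Hk3, Pfkfb3, Pfkfb4, Bpgm, Pklr, Slc16a1, Pdk3 (by 1 of its 2 probes) and Fbp1. Of these, Hk3, Bpgm and Pklr are known from blood cells. In all, 23 of 36 members passed the test as higher (63.9%, where 38.3% of all genes tested did) and 9 as lower (25%, where 37.4% of all genes did), and 4 did not pass it. Among the 32 members measured well above background on every array, 21 were higher, 8 lower and 3 not past. With the fit made on such genes alone, 21 members were higher and 9 lower. Of all 14896 genes in that fit, 6072 were higher and 6494 lower. In the main fit the median difference of the 36 members was 1.15 on the log2 scale, against 0.01 over all genes tested. With either line left out and ES cells grouped with the other line, Hk1, Pfkm, Pfkp, Pfkfb2, Ldha, Slc16a1, Slc16a3, Pdk3 and Pdha1 no longer passed the test, which left 17 higher and 6 lower. Pfkm, Pfkfb2 and Slc16a3 also lost the call with scaling to the median of each array, and Hk1 with dim probes kept in. Of 12 families of isoforms that serve the same step, 5 had higher members and no lower one, and 6 had members in both directions. Families in both directions can arise where 38.3% of all genes were higher and 37.4% lower, and no share for other families was computed. The count for phosphofructokinase depends on the Pfkp probe read. Those for the pyruvate dehydrogenase kinases and the lactate transporters rest on Pdk3, Slc16a1 and Slc16a3, whose calls were lost as given above.

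**Figure D1:**
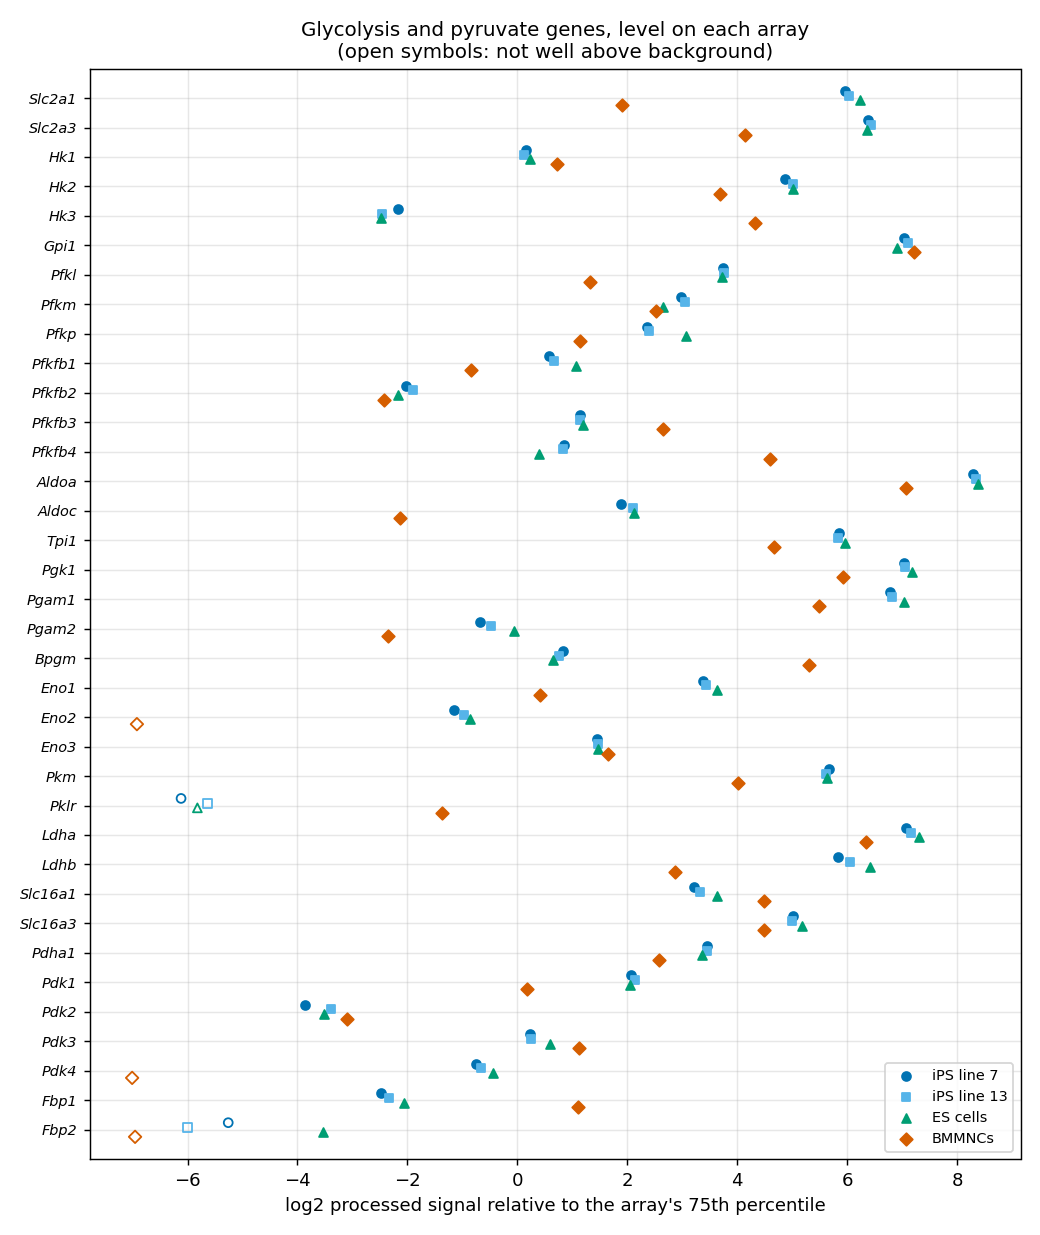
Level of each of the 36 members on each array, as log2 processed signal relative to the 75th percentile of the array. Circles and squares are iPS lines 7 and 13, triangles ES cells and diamonds BMMNCs, with open symbols for values not well above background; ES cells and both lines all lay above BMMNCs for 24 members (66.7%, where 45.1% of all genes did) and all below them for 12 (33.3%, where 43.7% did).

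Both glucose transporters of the list were higher in iPS cells. Slc2a1 codes for GLUT1, the widespread basal glucose transporter. Slc2a1 was at 5.96 in line 7 and 6.03 in line 13, at 6.23 in ES cells and at 1.91 in BMMNCs. The 2 iPS lines and ES cells lay close together and far above BMMNCs: the iPS difference from BMMNCs was 4.09 ± 0.0983 (SE), which is 17.0-fold (adjusted p = 0.000792). Slc2a3 codes for GLUT3, a transporter with high affinity for glucose. On the arrays, Slc2a3 read 6.39 in line 7, 6.43 in line 13, 6.37 in ES cells and 4.13 in BMMNCs. Here too the groups were separate, by 2.28 ± 0.0947 or 4.84-fold between iPS cells and BMMNCs (adjusted p = 0.00134).

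Hexokinases trap glucose in the cell by phosphorylating it, and the 3 on the list went different ways. Hk2, the isoform bound to mitochondria that is induced in many growing cells, was higher in iPS cells. Lines 7 and 13 had Hk2 levels of 4.87 and 5.02, ES cells one of 5.02 and BMMNCs one of 3.70. The difference was 1.25 ± 0.12 (2.38-fold, adjusted p = 0.00544). Hk3 is an isoform known from myeloid cells, and it showed the largest absolute difference of any member measured above background on every array. The level of Hk3 was -2.18 in line 7, -2.46 in line 13, -2.48 in ES cells and 4.32 in BMMNCs. Hk3 was 99.7-fold lower in iPS cells than in BMMNCs, a difference of -6.64 ± 0.174 (adjusted p = 0.000833), and granulocyte markers ran the same way, with a summed signal of -2.83 in line 7, -2.55 in line 13 and -1.73 in ES cells on the log2 scale, against 11.34 in BMMNCs. The ubiquitous Hk1 was at 0.16 in line 7, 0.12 in line 13, 0.24 in ES cells and 0.72 in BMMNCs, and was 1.49-fold lower in iPS cells (-0.58 ± 0.0944, adjusted p = 0.0169). Gpi1, the next enzyme, turns glucose phosphate into fructose phosphate and was measured on 10 spots an array. Gpi1 was at 7.03 in line 7 and 7.11 in line 13, at 6.91 in ES cells and at 7.22 in BMMNCs. All 4 arrays lay within a narrow range, and its difference of -0.15 ± 0.101 did not pass the test (adjusted p = 0.263).

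Phosphofructokinase commits sugar to glycolysis and is built of liver, muscle and platelet type subunits. Pfkl, the liver type, differed most. On the arrays, Pfkl read 3.73 in line 7, 3.76 in line 13, 3.73 in ES cells and 1.32 in BMMNCs. The iPS lines and ES cells were nearly equal and 5.37-fold above BMMNCs in the case of iPS cells (2.42 ± 0.0931, adjusted p = 0.00122). Pfkp, the platelet type, stood at 2.35 in line 7, 2.40 in line 13, 3.06 in ES cells and 1.14 in BMMNCs. Its difference from BMMNCs was 1.23 ± 0.0959 (adjusted p = 0.00363), but a second Pfkp probe gave -0.48, so the direction depends on the probe. The second probe was well above background but much dimmer, at -3.93 in both lines, -3.60 in ES cells and -3.45 in BMMNCs. Pfkm, the muscle type, read 2.97 in line 7, 3.05 in line 13, 2.65 in ES cells and 2.52 in BMMNCs and had the smallest change of the 3, 0.49 ± 0.102 (adjusted p = 0.0285). ES cells lay nearer to BMMNCs than to the iPS lines for Pfkm.

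The 4 Pfkfb genes code for bifunctional enzymes that make and remove fructose bisphosphate of the regulatory kind, the strongest activator of phosphofructokinase. Pfkfb1 and Pfkfb2 were higher in iPS cells and Pfkfb3 and Pfkfb4 lower. Pfkfb4, an isoform first known from testis, had the widest gap. Lines 7 and 13 had Pfkfb4 levels of 0.85 and 0.82, ES cells one of 0.40 and BMMNCs one of 4.59. It was 13.5-fold lower in iPS cells (-3.75 ± 0.0936, adjusted p = 0.000804). Pfkfb3 is the isoform with the highest kinase activity relative to its phosphatase activity. The level of Pfkfb3 was 1.14 in line 7, 1.14 in line 13, 1.20 in ES cells and 2.65 in BMMNCs. It was 2.84-fold lower (-1.51 ± 0.0924, adjusted p = 0.0024). Its E-box is shown above. An E-box was found for 3 of the 22 members with a window that were higher in iPS cells (13.6%). It was found for 2 of the 9 that were lower (22.2%), and its part in these levels was not tested. Pfkfb1 is the X-linked liver and muscle isoform. Pfkfb1 was at 0.57 in line 7 and 0.66 in line 13, at 1.06 in ES cells and at -0.83 in BMMNCs. It was 2.73-fold higher (1.45 ± 0.103, adjusted p = 0.00312), with ES cells above both lines. Pfkfb2, the heart isoform, was at -2.03 in line 7, -1.89 in line 13, -2.18 in ES cells and -2.43 in BMMNCs. It differed by 0.47 ± 0.119 (adjusted p = 0.0433), a call lost under several settings of the fit. Its 3 probes ranged between 0.08 and 1.21, where the probe at 1.21 was not well above background in BMMNCs.

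**Figure D2:**
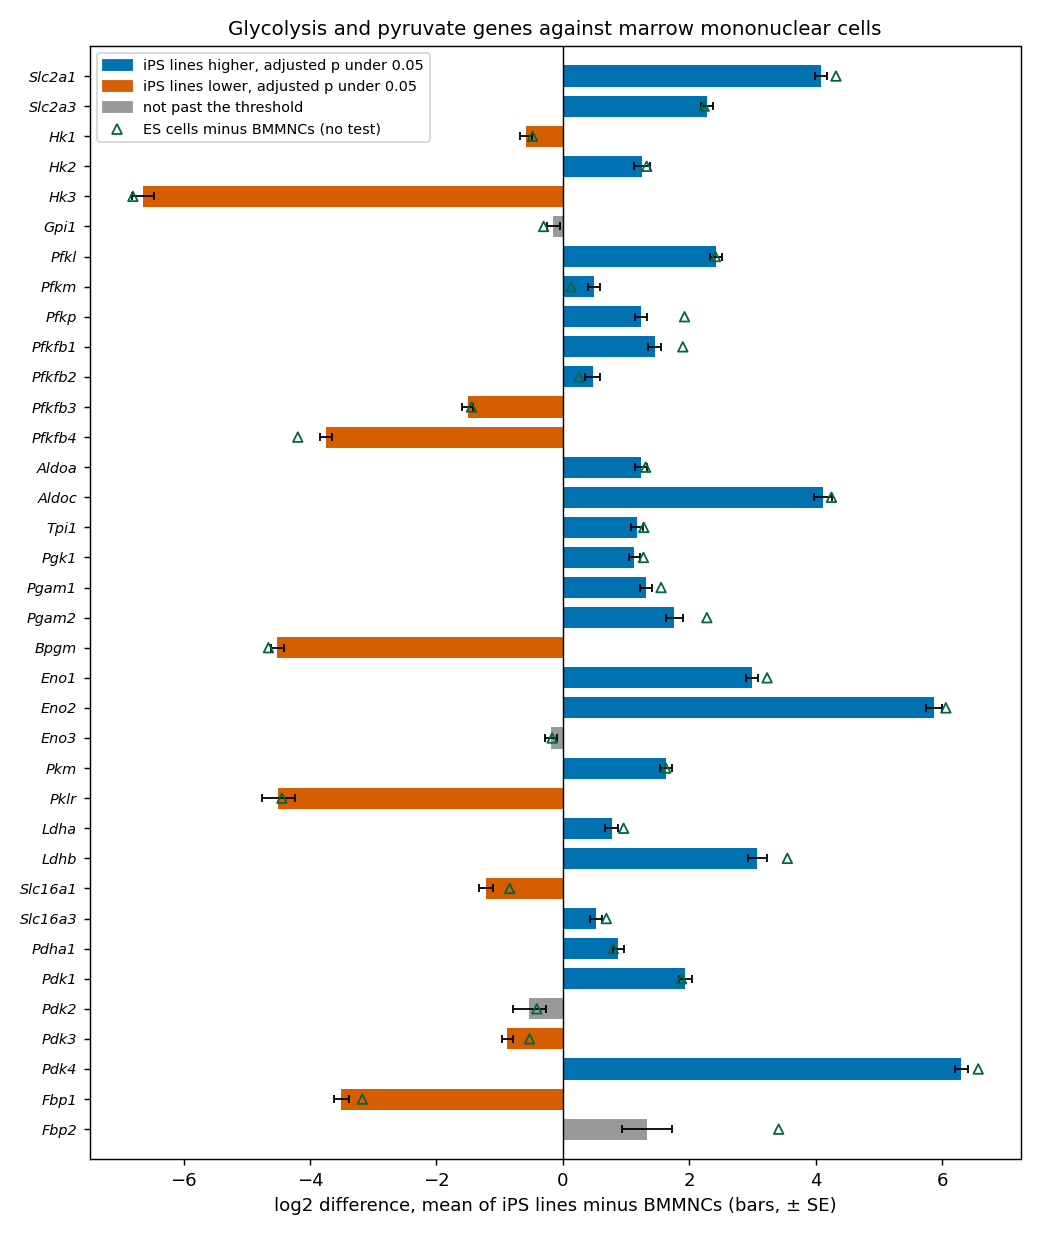
Difference of the mean of the 2 iPS lines from BMMNCs for each member on the log2 scale, as bars with the standard error of the limma fit, coloured by call; triangles are ES cells minus BMMNCs, which share the BMMNC array and have no test. The fitted bars of Eno2, Pdk4, Pklr and Fbp2 rest on values not well above background in 1 or both groups, and the longest bar below 0 is Hk3 at -6.64.

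In the lower part of glycolysis, 9 of 12 members were higher in iPS cells and 2 lower, where 38.3% and 37.4% of all genes were. Aldolase splits the sugar into a pair of trioses, and Aldoa is its widespread isoform. On the arrays, Aldoa read 8.29 in line 7, 8.34 in line 13, 8.39 in ES cells and 7.08 in BMMNCs. The 2.36-fold difference, 1.24 ± 0.0951, passed the test (adjusted p = 0.00355), and the second Aldoa probe gave 1.30. Aldoc is the isoform known from brain. Lines 7 and 13 had Aldoc levels of 1.88 and 2.10, ES cells one of 2.12 and BMMNCs one of -2.13. Its gap was far wider, 4.12 ± 0.146 or 17.4-fold (adjusted p = 0.00111). Tpi1 interconverts the trioses, and Pgk1 makes the first ATP of the route. Tpi1 stood at 5.85 in line 7, 5.84 in line 13, 5.95 in ES cells and 4.67 in BMMNCs. The level of Pgk1 was 7.04 in line 7, 7.06 in line 13, 7.19 in ES cells and 5.92 in BMMNCs. Their differences were near each other in size: 1.17 ± 0.0926 for Tpi1 (adjusted p = 0.00375) and 1.13 ± 0.0932 for the X-linked Pgk1 (adjusted p = 0.00404). Pgk1 was read from 10 spots an array, whose spread (SD) was between 0.044 and 0.056, an error of spot reading that leaves out the spread between samples.

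The mutase step moves the phosphate on phosphoglycerate. Pgam1 is the widespread mutase. Pgam1 was at 6.79 in line 7 and 6.82 in line 13, at 7.04 in ES cells and at 5.49 in BMMNCs. It was 2.49-fold higher in iPS cells (1.32 ± 0.0938, adjusted p = 0.00312). Pgam2, the muscle mutase, stood at -0.68 in line 7, -0.48 in line 13, -0.07 in ES cells and -2.34 in BMMNCs, which made it 3.40-fold higher in iPS cells (1.76 ± 0.136, adjusted p = 0.00357). Bpgm ran the other way. It makes bisphosphoglycerate, which lowers the oxygen affinity of haemoglobin in red cells. On the arrays, Bpgm read 0.84 in line 7, 0.75 in line 13, 0.65 in ES cells and 5.31 in BMMNCs. Bpgm was 22.9-fold lower in iPS cells (-4.52 ± 0.103, adjusted p = 0.000763), and both of its probes gave nearly the same difference, -4.52 and -4.29. Erythroid markers ran the same way, with a summed signal of -0.02 in line 7, 0.02 in line 13 and -0.34 in ES cells on the log2 scale, against 10.18 in BMMNCs.

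Enolase forms phosphoenolpyruvate. Eno1 is the widespread isoform. Lines 7 and 13 had Eno1 levels of 3.37 and 3.43, ES cells one of 3.63 and BMMNCs one of 0.40. It was 7.97-fold higher in iPS cells (2.99 ± 0.0963, adjusted p = 0.001). Eno2, known as neuronal enolase, was well above background in both iPS lines and in ES cells but not in BMMNCs. The level of Eno2 was -1.14 in line 7, -0.97 in line 13, -0.87 in ES cells and -6.92 (not well above background) in BMMNCs. It was at least 14.2-fold higher in iPS cells (adjusted p = 0.000757) and at least 16.2-fold higher in ES cells, where the bound puts, on an array that reads the probe as dim, the lowest signal well above background on that array. For Eno2, as for Pklr, Pdk4 and Fbp2 below, the p of the fit uses the dim values as read, and the gene passed the filter through the arrays on which it was bright, so the p adds nothing to the bound. Eno3, the muscle isoform, stood at 1.45 in line 7, 1.47 in line 13, 1.47 in ES cells and 1.64 in BMMNCs, and its difference of -0.19 ± 0.0927 did not pass the test (adjusted p = 0.169).

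Pyruvate kinase makes the last ATP, and its 2 genes went opposite ways. Pkm codes for the muscle form and the form of growing cells by alternative splicing. Pkm was at 5.67 in line 7 and 5.61 in line 13, at 5.64 in ES cells and at 4.01 in BMMNCs. It was 3.09-fold higher in iPS cells (1.63 ± 0.0967, adjusted p = 0.00228). Which splice form the probe reads was not determined here. Pklr, the liver and red cell gene, was well above background only in BMMNCs. On the arrays, Pklr read -6.12 (not well above background) in line 7, -5.64 (not well above background) in line 13, -5.82 (not well above background) in ES cells and -1.38 in BMMNCs. It was at least 13.8-fold lower in iPS cells (adjusted p = 0.00223, which rests on dim values and adds nothing to the bound) and at least 13.0-fold lower in ES cells.

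Lactate dehydrogenase interconverts pyruvate and lactate. Ldha codes for the muscle-type subunit, which favours lactate formation, and Ldhb for the heart-type subunit. Lines 7 and 13 had Ldha levels of 7.07 and 7.15, ES cells one of 7.30 and BMMNCs one of 6.34. The level of Ldhb was 5.83 in line 7, 6.06 in line 13, 6.42 in ES cells and 2.87 in BMMNCs. For both genes ES cells were highest and BMMNCs lowest. Ldha was 1.71-fold higher in iPS cells than in BMMNCs (0.77 ± 0.102, adjusted p = 0.0106), and Ldhb 8.43-fold (3.07 ± 0.152, adjusted p = 0.0017). The lactate transporters split. Slc16a3, which codes for MCT4, an exporter of lactate in glycolytic cells, was at 5.01 in line 7, 5.01 in line 13, 5.17 in ES cells and 4.49 in BMMNCs, higher in iPS cells by 0.52 ± 0.0924 (adjusted p = 0.0201). Slc16a1 codes for the widespread MCT1. Slc16a1 was at 3.21 in line 7 and 3.32 in line 13, at 3.64 in ES cells and at 4.48 in BMMNCs. It was 2.32-fold lower in iPS cells (-1.21 ± 0.11, adjusted p = 0.0049). The 3 Slc16a1 probes all pointed down but ranged between -1.38 and -0.10.

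Pyruvate dehydrogenase sends pyruvate into mitochondrial oxidation, and its kinases switch it off. Pdha1, the X-linked catalytic subunit, stood at 3.44 in line 7, 3.45 in line 13, 3.37 in ES cells and 2.57 in BMMNCs, and was 1.84-fold higher in iPS cells (0.88 ± 0.0924, adjusted p = 0.00661). Of the kinases, Pdk1 is a known target of hypoxia-inducible factor in other cells. On the arrays, Pdk1 read 2.06 in line 7, 2.14 in line 13, 2.04 in ES cells and 0.17 in BMMNCs. It was 3.82-fold higher (1.93 ± 0.1, adjusted p = 0.00185). Pdk4, a kinase induced by fasting in muscle and heart, was not well above background in BMMNCs. Lines 7 and 13 had Pdk4 levels of -0.75 and -0.66, ES cells one of -0.44 and BMMNCs one of -7.01 (not well above background). It was at least 18.1-fold higher in iPS cells (adjusted p = 0.000704, which rests on a dim value and adds nothing to the bound) and at least 21.7-fold higher in ES cells. Pdk3 is the X-linked kinase. The level of Pdk3 was 0.23 in line 7, 0.24 in line 13, 0.59 in ES cells and 1.11 in BMMNCs. It was lower by this probe (-0.88 ± 0.0924, adjusted p = 0.00659), but the other probe differed by 0.03, so the call depends on the probe. The other probe read 0.36 in line 7, 0.43 in line 13, 0.85 in ES cells and 0.36 in BMMNCs. The probe used was thus the brighter only in BMMNCs. Pdk2, a widespread kinase, was at -3.86 in line 7, -3.39 in line 13, -3.51 in ES cells and -3.10 in BMMNCs and did not pass the test (-0.53 ± 0.26, adjusted p = 0.164).

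Fructose bisphosphatase reverses the phosphofructokinase step in gluconeogenesis. Fbp1 is the isoform of liver and kidney. Fbp1 was at -2.47 in line 7 and -2.33 in line 13, at -2.07 in ES cells and at 1.10 in BMMNCs. It was 11.4-fold lower in iPS cells than in BMMNCs (-3.51 ± 0.117, adjusted p = 0.00105). Fbp2, the muscle isoform, was well above background only in ES cells. On the arrays, Fbp2 read -5.26 (not well above background) in line 7, -6.00 (not well above background) in line 13, -3.54 in ES cells and -6.96 (not well above background) in BMMNCs. It was at least 2.94-fold higher in ES cells than in iPS cells by size, a difference that did not pass the test (adjusted p = 0.097), and at least 2.53-fold higher in ES cells than in BMMNCs, and no fold can be given between iPS cells and BMMNCs.

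Probes of the same gene gave a check within the arrays. Of the 36 members, 12 had several probes, and all probes well above background on some array gave the same sign for the difference between iPS cells and BMMNCs in 10 of them. Pfkp and Pdk3 were the exceptions. Agreement was closest for Aldoa, at 1.24 and 1.30, and for Pgk1, at 1.13 and 1.24. Probes of Pfkfb2, Slc16a1, Hk1 and Pfkfb3 kept their sign but differed by more than 0.6 on the log2 scale. Part of that range came from dim probes. Hk1 probes well above background on every array gave -0.58, -0.52 and -0.51, and the one at -1.12 was so only in BMMNCs. The Pfkfb2 probe at 1.21 was dim in BMMNCs, and the dimmer of the Pfkfb3 probes compared lay between -4.80 and -4.00. The fold of Pfkfb2, Slc16a1 and Pfkfb3 still depends on which probe is read.

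**Figure D3:**
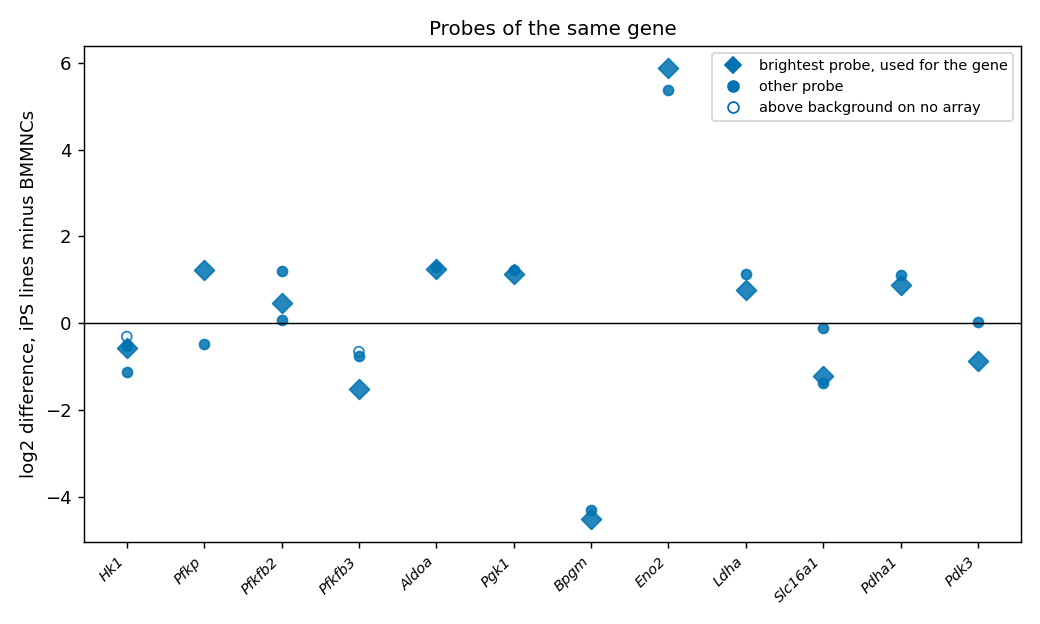
Difference of the mean of the 2 iPS lines from BMMNCs for every probe of the 12 members with several probes, on the log2 scale. Diamonds are the probe brightest in the mean over arrays, which stands for the gene, filled circles other probes and open circles probes above background on no array. The probes of Pfkp, at 1.23 and -0.48, fall on opposite sides of 0, the second being much dimmer.

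The second question was how far the iPS lines differ from ES cells. None of the 36 members passed the test by limma, where 1.93% of all genes passed it as higher and 2.71% as lower (4.64% in all), while 8 (22.2%) had an unadjusted p under 0.05, where 31.0% of all genes did. The smallest adjusted p was 0.0704, for Pfkp, which differed from ES cells by -0.69 ± 0.0959. Differences were small: 33 of 36 members lay less than 0.5 from ES cells on the log2 scale, with a median absolute difference of 0.16, against 0.25 over all genes tested. Both lines lay below ES cells for 23 members (63.9%, where 46.5% of all genes did) and above them for 10 (27.8%, where 37.8% did), and the median difference was -0.11, against -0.05 over all genes tested. With scaling to the median of each array in place of the 75th percentile the members' median was -0.03, against 0.03 over all genes. With 1 ES array and the spread of 2 lines, a p that misses the threshold does not show that the cells are alike.

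Other settings of the fit moved this result. With normexp background correction 2 members passed as higher and 6 as lower, where 11.7% and 15.3% of all genes did. With genes above background on every array it was 2 and 7, where 16.7% and 21.8% did, and with an intensity trend 2 and 11, where 15.7% and 20.0% did. In all 3 settings Pfkm and Pfkfb4 were higher in iPS cells, and Pfkp, Pfkfb1, Pgam2, Ldhb and Slc16a1 lower. In the main fit Pfkfb4 differed from ES cells by 0.44 (adjusted p = 0.109), Pfkm by 0.36 (0.149), Pfkfb1 by -0.45 (0.119), Pgam2 by -0.51 (0.139), Ldhb by -0.47 (0.172) and Slc16a1 by -0.37 (0.159). By size alone, 1 member, Fbp2, was lower in both lines by 2-fold or more, where 4.15% of all genes were, and none was higher by as much, where 2.36% were.

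**Figure D4:**
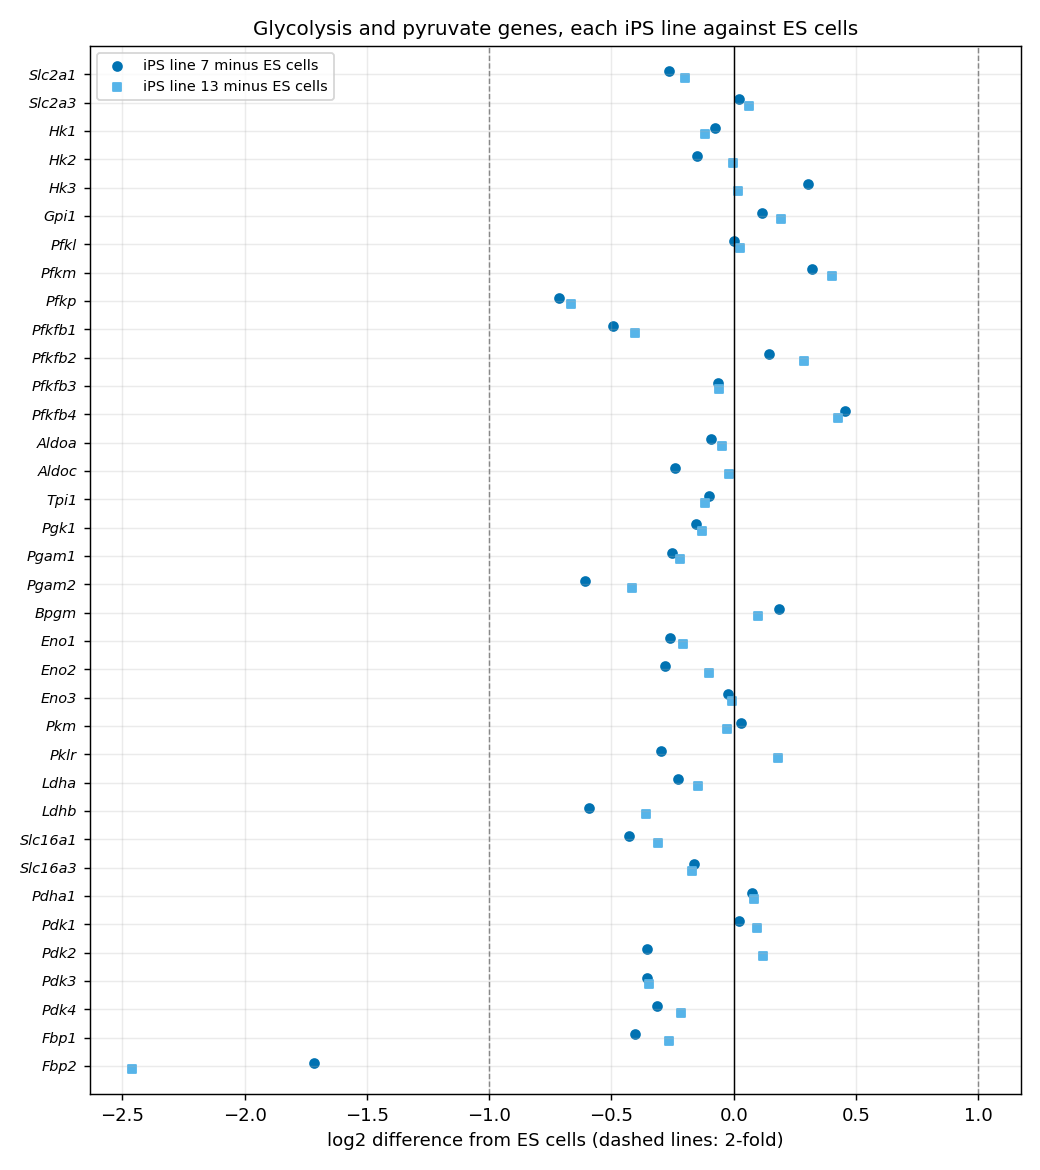
Difference of each iPS line from ES cells for each member on the log2 scale, with line 7 as circles, line 13 as squares and dashed lines at 2-fold. Fbp2, whose iPS values are not well above background, is the only member beyond a dashed line, and Pfkp, at -0.69 for the mean of the lines, is next.

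The 2 lines were close to each other. No member differed by 2-fold between line 7 and line 13, where 1.32% of all genes were at least 2-fold higher in line 7 and 1.12% at least 2-fold lower, and none differed by 1.5-fold except Fbp2, which was not well above background in either line. The median absolute difference was 0.08, against 0.11 over all genes tested, and 32 of 36 members were closer than 0.25. Among members well above background in both lines the widest gap was that of Pdk2, at -3.86 in line 7 and -3.39 in line 13.

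ES cells were also set against BMMNCs, with 1 array each and therefore by size alone. They were at least 2-fold higher for 19 of 36 members, where 28.6% of all genes were, and at least 2-fold lower for 6, where 26.5% were. The 6 were Hk3, Pfkfb3, Pfkfb4, Bpgm, Pklr and Fbp1. By the same size rule applied to both iPS lines, 18 members were higher than in BMMNCs, where 25.0% of all genes were, and 7 lower, where 25.7% were; the seventh was Slc16a1. Both comparisons rest on the same BMMNC array. Among members well above background on every array, the widest gaps between iPS cells and BMMNCs were those of Aldoc and Slc2a1 upwards and of Hk3 and Bpgm downwards. Their differences from BMMNCs were, for Aldoc, 4.12 in iPS cells and 4.25 in ES cells, for Slc2a1, 4.09 and 4.32, for Bpgm, -4.52 and -4.66, and for Hk3, -6.64 and -6.80.

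Genes of the neighbouring pathways were read from lists that do not include the members. Of 9 listed genes of the pentose phosphate pathway, which draws off glucose phosphate to make NADPH and ribose, 5 were tested. H6pdh, Pgd, Rpia and Tktl1 were not tested. All 5 tested genes were lower in iPS cells than in BMMNCs, with a median of -1.89. G6pdx, the first enzyme of the pathway, was at 2.52 in line 7, 2.53 in line 13, 2.30 in ES cells and 4.43 in BMMNCs (-1.90 ± 0.0925, adjusted p = 0.00167). Pgls, the next enzyme, had the largest fall (-2.08 ± 0.0939, adjusted p = 0.0015) and Rpe, an epimerase of the later steps, the smallest (-0.73 ± 0.0924, adjusted p = 0.00969). Of 4 tested genes of gluconeogenesis, 3 were lower and none higher, among them Pck2, the mitochondrial enzyme that makes phosphoenolpyruvate (-0.65 ± 0.0993, adjusted p = 0.0146), and Slc37a4, the glucose phosphate transporter of the endoplasmic reticulum (-2.01 ± 0.134, adjusted p = 0.00278). Pck1, the cytosolic enzyme of the same step, was well above background in line 7 alone. These shares stand against the 37.4% of all genes that were lower.

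Entry of pyruvate into mitochondria was mixed, with 4 of 9 genes higher and 3 lower. Over all genes tested, 38.3% were higher and 37.4% lower. Both subunits of the mitochondrial pyruvate carrier were lower in iPS cells. Mpc1 was at 1.19 in line 7, 1.32 in line 13, 1.66 in ES cells and 3.59 in BMMNCs (-2.33 ± 0.114, adjusted p = 0.00168). Mpc2 was at 1.38 in line 7, 1.38 in line 13, 1.43 in ES cells and 3.96 in BMMNCs (-2.58 ± 0.0924, adjusted p = 0.00112). Pdhb, the partner of Pdha1 in the dehydrogenase, was higher (0.94 ± 0.114, adjusted p = 0.00894). The tricarboxylic acid cycle, where pyruvate carbon is oxidised, had 8 of 22 genes higher, 4 lower and 10 not past the test, with a median of 0.05. Its higher share is near the 38.3% of all genes. Me1, the cytosolic malic enzyme, read 0.98 in line 7, 0.89 in line 13 and 0.69 in ES cells but was not well above background in BMMNCs. Cs, the first enzyme of the cycle, differed by 0.06 ± 0.0995 (adjusted p = 0.593), Aco1, an aconitase of the cytosol, by 0.75 ± 0.0937 (adjusted p = 0.00952), Suclg2, a subunit of succinyl-CoA ligase, by 1.32 ± 0.106 (adjusted p = 0.00389) and Dlst, a subunit of the oxoglutarate dehydrogenase complex, by -0.97 ± 0.0931 (adjusted p = 0.00544).

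The glycogen and branch list had 6 of 12 genes higher and 3 lower, where 38.3% and 37.4% of all genes were. Pgm1, a phosphoglucomutase that links glycogen to glycolysis, was higher by 1.97 ± 0.102 (adjusted p = 0.00184), whereas Pygl, the liver type glycogen phosphorylase, was lower by the largest amount on the list (-4.62 ± 0.0925, adjusted p = 0.000732), and Pgm2, another phosphoglucomutase, differed by 0.33 ± 0.119 (adjusted p = 0.0923). Among other isoforms of the member steps, 7 of 13 were higher and 5 lower, against the same shares of all genes. Tigar, a phosphatase that removes the activator of phosphofructokinase, was higher by 3.98 ± 0.0953 (adjusted p = 0.000786), and Slc2a6, a glucose transporter family member known from leukocytes, was lower by the widest margin. Slc2a6 stood at -3.47 in line 7, -3.78 in line 13, -4.04 in ES cells and 1.85 in BMMNCs (-5.47 ± 0.188, adjusted p = 0.00108). Slc2a4, the insulin-regulated transporter, was also lower (-4.27 ± 0.149, adjusted p = 0.0011), while Slc2a2, the liver and islet transporter, did not pass the test (adjusted p = 0.551).

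Of 17 regulators and hypoxia-responsive genes outside glycolysis, 10 were higher in iPS cells, 5 lower and 2 not past the test, with a median of 0.83. Of all genes tested, 38.3% were higher and 37.4% lower. Hif1a, the oxygen-regulated subunit of hypoxia-inducible factor, was at 1.22 in line 7, 1.29 in line 13, 0.97 in ES cells and 0.08 in BMMNCs (1.18 ± 0.0983, adjusted p = 0.00413). Arnt, its partner, differed by 0.83 ± 0.119 (adjusted p = 0.0127). P4ha2, a collagen prolyl hydroxylase, had the largest difference, 8.26 ± 0.0971 (adjusted p = 0.000704). P4ha2 was at 3.93 in line 7, 3.87 in line 13, 4.05 in ES cells and -4.37 in BMMNCs. The fibroblast and pluripotency marker lists were also higher in iPS cells, with medians of 7.85 and 10.39. What part either cell type has in the P4ha2 difference was not tested. Esrra, an orphan nuclear receptor that drives mitochondrial genes, was lower by the widest margin (-1.18 ± 0.0937, adjusted p = 0.00379). Between iPS and ES cells, Pygb, the brain type glycogen phosphorylase, passed the test as higher (1.18 ± 0.0926, adjusted p = 0.0456), and Pdha2, the testis form of the dehydrogenase subunit, as lower (adjusted p = 0.0431), well above background in ES cells alone. Both were named after their values were seen, and no other gene of the neighbouring lists passed that test.

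**Figure D5:**
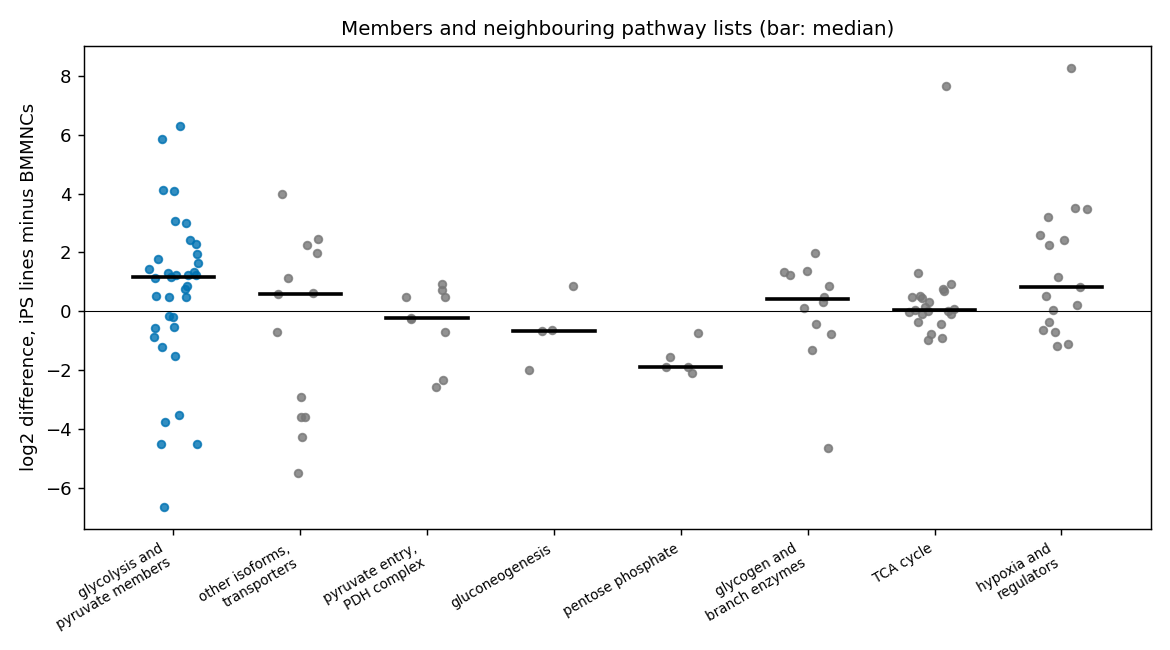
Difference of the mean of the 2 iPS lines from BMMNCs on the log2 scale for the members and for each neighbouring pathway list, 1 point a gene, with bars at the medians and sideways spread for legibility only. The members' median is 1.15 and that of the 5 tested of 9 listed pentose phosphate genes, all below 0, is -1.89.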

How the data were processed

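RNA of 4 mouse samples was measured on single-colour Agilent arrays. Spot values are the processed signal intensity that Agilent Feature Extraction 9.5.1.1 wrote, per the file headers (9.5 per the submitters' processing notes). The deposited value table held the same intensity times 1 factor per array, 0.70 in ES cells, 0.66 in line 7, 0.63 in line 13 and 1.41 in BMMNCs on the log2 scale (column medians 139.9, 135.9, 133.6 and 106.2). Its scale is linear, its genes are not centred, and how the factors were set is not given in the sources used here.

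From the scanner files, the log2 intensity was averaged over spots of a probe, 14 probes with only outlier spots were left out of 41174, and the 75th percentile of each array was subtracted. Probes were named through their accession in RefSeq (22951 had a symbol), and the probe brightest in the mean over the 4 arrays stood for a gene. Genes above background on at least 1 array were fitted with limma 3.58.1 in R 4.3.3, with 3 groups, 1 residual degree of freedom, a prior of 1.81 degrees of freedom and a prior SD of 0.0940, tested on simulated data. The simulation drew the error of all 4 arrays from that prior. It cannot test whether the single ES and BMMNC arrays vary as the lines do. Adjusted p is Benjamini-Hochberg over all 21231 genes, with a threshold of 0.05, and p-values measure the spread between 2 lines. ES cells against BMMNCs, and the lines against each other, were compared by size alone (2-fold). Every matched member was named. From each neighbouring list, the text named the first 2 tested genes and those with the largest rise and fall among genes bright enough to be measured in both iPS lines and in BMMNCs (Me1, Pygb and Pdha2 were added after their values were seen). The members and lists were chosen with earlier results of these data known. Alternatives were median scaling, quantile normalization, normexp with an offset of 50 (on median spot signals, since the files used here hold no mean signal), the deposited table, the mean of probes, other filters, an intensity trend and leaving out a line.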

Additional observations from a re-analysis of the deposited data

How the results depend on the processing

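Between iPS cells and BMMNCs, every member called higher or lower kept its direction under all alternatives run, with 20 to 24 called higher and 8 to 10 lower when both lines were kept. The median of all genes moved to -0.20 with median scaling or normexp, when the members' median was 0.94 or 1.06. With a line left out and ES cells grouped with the other line (chosen after seeing the data), 17 and 17 members stayed past the threshold as higher and 6 and 6 as lower; Hk1, Pfkm, Pfkp, Pfkfb2, Ldha, Slc16a1, Slc16a3, Pdk3 and Pdha1 lost their call whichever line was left out, and the cause was not tested. Pfkfb2, Pfkm, Slc16a3 and Hk1 were also the members whose call was lost under at least 1 other scaling, filter, background or grouping. By size alone, leaving out either line gave 18 higher and 7 lower, as with both lines kept. Median scaling gave 14 and 8, quantile normalization 19 and 7, and the mean of probes 17 and 5. Genes above background on every array gave 16 and 6. Shares of all genes by size under these settings were not computed.

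Between iPS and ES cells, the members called higher numbered 2 with normexp, 2 with genes above background on every array and 2 with an intensity trend, and those lower 6, 7 and 11; the cause was not tested. The 2-fold count lower by size was 0 with normexp and 0 with genes above background on every array, since Fbp2 is dim in iPS cells. Without either line it was 1, and that of higher members 0. At 4-fold, 10 members were higher in ES cells than in BMMNCs and 5 lower, and the shares of all genes at 4-fold were not computed.

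The differences that changed sign were small and past no threshold. Those between iPS and ES cells were 0.00788 for Hk2, 0.0219 for Pfkfb3, 0.0136 for Aldoa, 0.0685 for Eno3 and 0.0247 for Pklr with median scaling; 0 for Aldoa, 0.0154 for Eno3 and 0.0400 for Pklr with quantile normalization; 0.00201 for Pfkfb3 with normexp and 0.0259 with the mean of its probes; and -0.00271 for Pkm with the deposited table. Between iPS cells and BMMNCs they were 0.22 for Gpi1 with quantile normalization and -0.12 for Fbp2 with normexp. No paired analysis was possible because lines 7 and 13 share no number with the ES or BMMNC array, and those 2 arrays, numbered 1 only for want of a label, form single-array groups with no test. Signal over background limits Eno2, Pdk4, Pklr and Fbp2 to bounds.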
